A study of Mus musculus with 6 samples.

Results

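The genes described here encode 10 secreted cytokines: the interleukins Il1a, Il1b, Il3, Il4, Il5, Il6 and Il13, the colony-stimulating factors Csf1 and Csf2, and tumour necrosis factor, Tnf. They were chosen by name, with earlier results of these data known, as every probe set whose platform annotation gives 1 of these symbols alone. All 10 genes were present, as 13 of the 35877 probe sets tested and 10 of the 18193 genes these represent. Transcripts were measured on 6 Affymetrix mouse arrays, with 2 arrays in each of 3 groups of haematopoietic stem cells. The cells were sorted from mouse long-bone marrow as positive for GFP, c-Kit and Sca-1 and negative for lineage markers. The first group carried BCR/ABL and came from mice treated with imatinib, the second carried BCR/ABL and came from mice without that treatment, and the third carried the empty GFP vector. Chronic myeloid leukaemia (CML) is driven by BCR/ABL, a fused tyrosine kinase that imatinib inhibits. The sources used here do not give the dose and duration of imatinib, the mouse strain, age and sex, the promoter that drove BCR/ABL, or whether mice were pooled for an array. The labels do not say whether both arrays of a group came from different animals, so p-values reflect the spread between 2 arrays, possibly a technical one.

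Cytokines of this kind are small secreted proteins that act through surface receptors on the same or nearby cells. Il3, Csf2 (also called GM-CSF) and Il5 bind receptors that share the beta common chain and promote myeloid growth, while Il4 and Il13 share the Il4ra chain and are typical products of mast cells, basophils and type 2 helper T cells. Il1a, Il1b, Il6 and Tnf are the classical inflammatory cytokines, and Csf1 supports monocytes and macrophages. In BCR/ABL-positive primitive cells, cytokines made by the leukaemic cells themselves have long been studied as a source of growth signals. The comparison of the groups describes how the intensity of these genes differed between sorted cells with BCR/ABL, with or without imatinib, and those with the vector.

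The deposited values are linear array intensities, 1 per probe set, which the submitters' processing notes attribute to MAS5. The arrays share the same trimmed mean. Between 36.1% and 41.5% of probe sets on an array lay below 16. Without detection calls, a value of that size cannot be separated from background. Changes are differences in log2(intensity + 16) after quantile normalization, which understates the change of dim genes. They were tested with limma in 1 model over all 6 arrays, with p-values adjusted by Benjamini-Hochberg over all 35877 probe sets and 0.05 as the threshold. A gene with several probe sets is represented by the one with the highest mean.

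Of the 9 genes listed for the sorting gate and stem cell identity, 7 were measured, and all 7 lay above 16 on every array. Among these, Kit had intensities of 2659 and 2602 with imatinib, 1332 and 1116 in untreated BCR/ABL cells, and 1637 and 2125 in vector cells. The vector arrays differed from each other in markers of lineages that the sort was to exclude. The summed intensity of 6 B cell markers was 15915 on vector replicate 1 and 3724 on vector replicate 2, and from 602 to 1864 on the 4 BCR/ABL arrays with or without imatinib. For 6 T cell markers it was 1032 on vector replicate 1 and from 51.9 to 132 on the other arrays. For 7 granulocyte markers it was 30537 on vector replicate 2 and from 54708 to 63695 elsewhere. Values of the 2 vector arrays are therefore given separately.

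Il4, Il6, Il13, Csf2 and Il1b had high intensity in untreated BCR/ABL cells, and all 5 had lower intensity when the mice had received imatinib. Il4 and Il6 passed the test in BCR/ABL against vector cells. With imatinib against untreated BCR/ABL, limma called 0 of the 10 genes and 0 of 18193. Csf1 had its highest intensities with imatinib, Tnf stayed between 41.6 and 89.7 on all arrays, and Il1a, Il3 and Il5 were dim. In BCR/ABL against vector, 2 of 10 genes rose and 0 fell, where limma called 19 of 18193 genes in either direction (0.104%), 18 higher (0.0989%) and 1 lower (0.0055%).

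**Figure D1:**
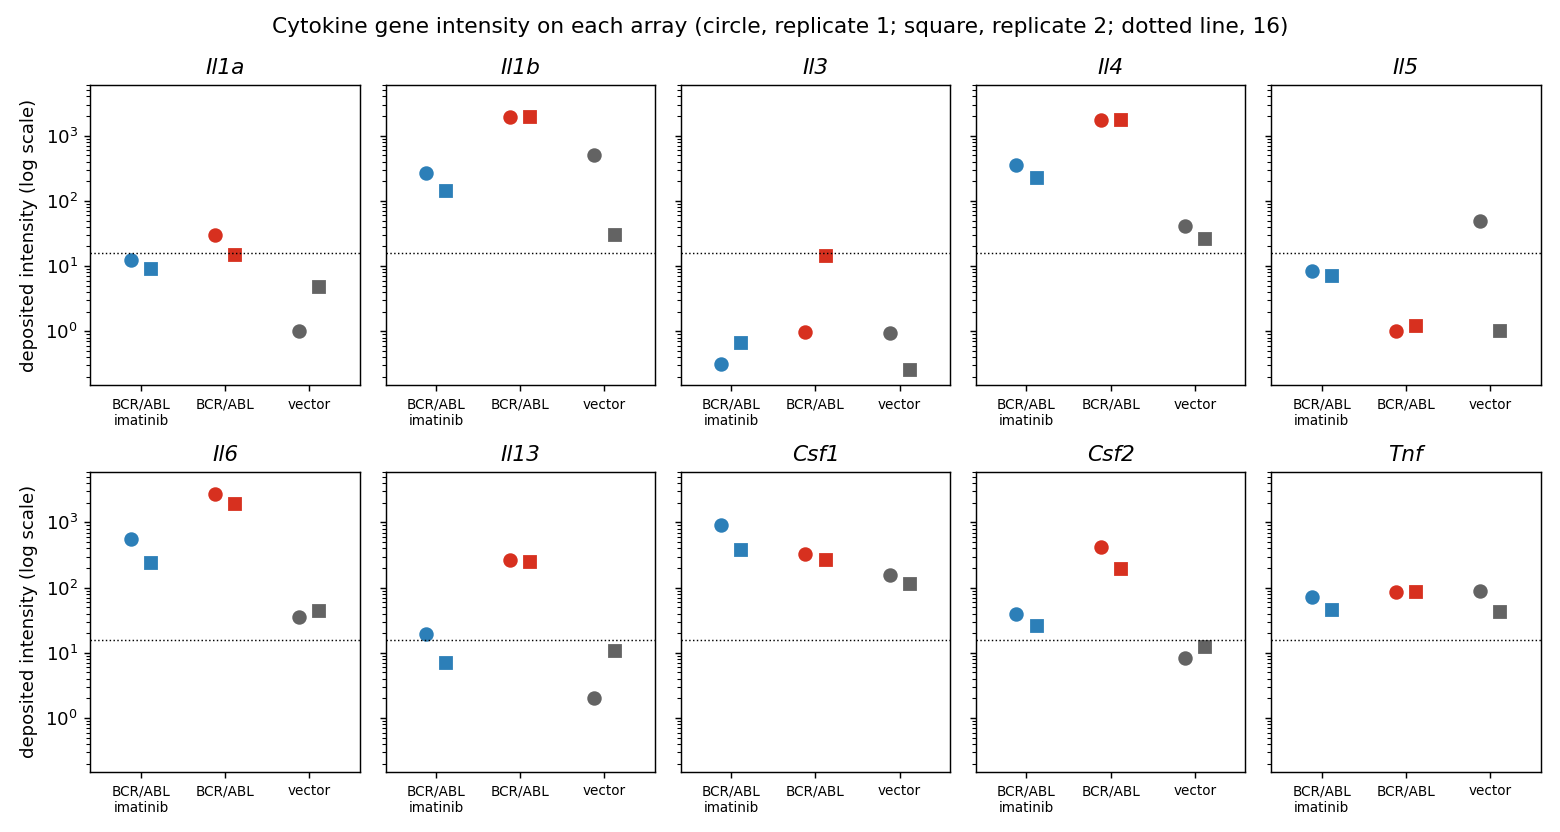
Deposited intensity (log axis) of the 10 cytokine genes on each array, with circles for replicate 1, squares for replicate 2 and a dotted line at 16. Il4 lay at 1756 and 1721 on the untreated BCR/ABL arrays and at 41.3 and 26.0 on the vector arrays, while Il3 lay below 16 on all 6.

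Il4 encodes the cytokine that drives type 2 helper T cell differentiation and class switching to IgE. Its intensity was 1756 and 1721 on the untreated BCR/ABL arrays, against 41.3 and 26.0 on the vector arrays. On the log2 scale it averaged 10.76 ± 0.01 with BCR/ABL and 5.58 ± 0.26 with the vector (SD, n = 2 each). Il4 rose by 5.17 (SE 0.34, limma adjusted p = 0.0196), the 6th largest rise of 18193 genes.

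Il6 encodes a cytokine that signals through the Il6st chain and acts on stem cells, B cells and the liver. Its intensity was 2743 and 1898 in BCR/ABL cells, against 35.2 and 43.4 in vector cells. Both arrays of a group stood far from those of the other. Il6 rose by 5.38 (SE 0.46, limma adjusted p = 0.0421), the 5th largest rise. Neither call held without BCR/ABL replicate 1 (limma adjusted p = 0.491 for Il4 and 0.613 for Il6) or without BCR/ABL replicate 2 (0.269 and 0.313). In those fits the lone BCR/ABL array is assumed to vary like the other groups, and limma called 0 of 18193 genes, so the loss is not particular to these genes. The Il4 call also ended without vector replicate 2 (0.0503), and the Il6 call without vector replicate 1 (0.154) or vector replicate 2 (0.0693). The changes themselves ranged from 4.99 to 5.36 for Il4 and from 5.13 to 5.63 for Il6 when any 1 array was left out.

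Il13, which shares receptor chains with Il4, had intensities of 268 and 244 in BCR/ABL cells, against 2.03 and 10.7 in vector cells. Its difference was 3.70 (SE 0.40, limma adjusted p = 0.0751), which did not pass. Both vector values lie below 16, so the size of this difference depends on the added constant, and it was 5.46 with a constant of 1 and 2.25 with 64. Csf2, the granulocyte-macrophage colony-stimulating factor, had intensities of 424 and 193 in BCR/ABL cells, against 8.31 and 12.2 in vector cells. Its difference was 3.57 (SE 0.48, limma adjusted p = 0.104), and its groups did not overlap. Both vector values lie below 16 here too, and the difference was 4.71 with a constant of 1 and 2.30 with 64.

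Il1b, which is released after cleavage by caspase-1, had intensities of 1924 and 1941 in BCR/ABL cells, against 513 and 30.1 in vector cells. The BCR/ABL arrays were close to each other and the vector arrays were not. The difference of 3.62 (SE 1.07, limma adjusted p = 0.334) became 5.37 when vector replicate 1 was left out and 1.87 when replicate 2 was. Vector replicate 1 was also the array with the high B and T cell marker sums given above. Its granulocyte and macrophage marker sums also exceeded those of vector replicate 2, at 58920 against 30537 and 14653 against 8369. The part of any of these cells in the Il1b value was not tested.

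Csf1, the growth factor of macrophages, had intensities of 324 and 267 in BCR/ABL cells, against 156 and 114 in vector cells. The difference was 1.15 (SE 0.45, limma adjusted p = 0.422). Its other 3 probe sets differed in the same direction, by 0.51, 0.86 and 1.37. The 4 probe sets of Csf1 measure 1 gene and are not replicates.

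Il1a, a membrane-associated relative of Il1b that binds the same receptor, had intensities of 30.2 and 14.99 in BCR/ABL cells, against 1.01 and 4.85 in vector cells. The difference was 1.16 (SE 0.29, limma adjusted p = 0.293). Tnf had intensities of 86.1 and 84.5 in BCR/ABL cells, against 89.7 and 41.6 in vector cells, which overlap on the deposited scale. The difference was 0.60 with a 95% interval from -0.51 to 1.70, and it was 0.95 with vector replicate 1 left out and 0.24 with vector replicate 2 left out.

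Il3, the multilineage growth factor often linked to BCR/ABL-positive progenitors, had intensities of 0.971 and 14.1 in BCR/ABL cells, against 0.948 and 0.251 in vector cells. All lay below 16, and the difference of 0.48 had a 95% interval from -0.18 to 1.14, with 0.044 when BCR/ABL replicate 2 was left out. Il5, the eosinophil growth factor, had intensities of 1.00 and 1.22 in BCR/ABL cells, against 48.9 and 1.01 in vector cells. Only vector replicate 1 exceeded 16, and the difference of -0.90 became 0.027 without that array.

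In this comparison the groups did not overlap on the normalized scale for 9 of 10 genes, each higher in BCR/ABL cells, and 23.9% of all genes were likewise higher without overlap. The 9 include Il3, with all values below 16, and Tnf, which overlapped on the deposited scale. None of the 10 was lower without overlap, against 20% of all genes. The median change was 2.36 over the 10 genes and 0.01 over all genes. At an unadjusted p under 0.05 there were 7 of the 10, and 12.7% of all genes. As earlier results were known when the genes were chosen, these shares describe the set and do not test it.

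**Figure D2:**
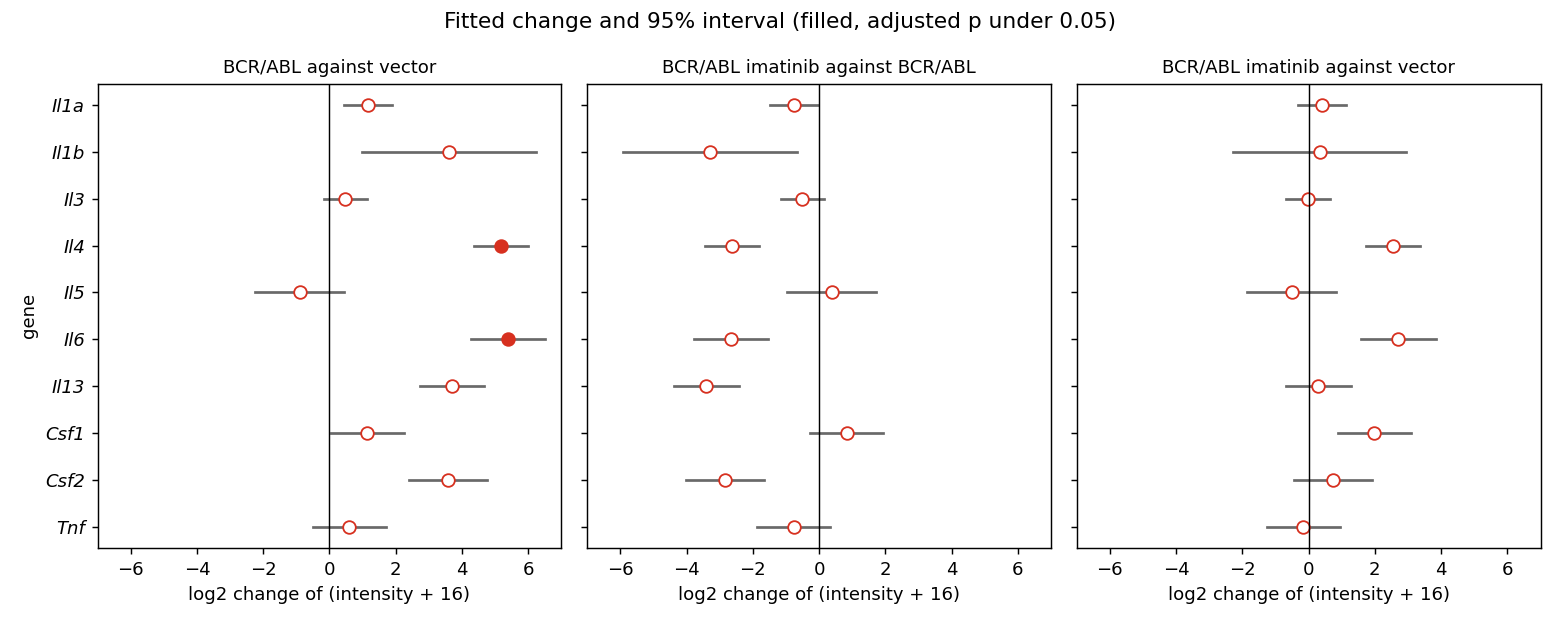
Change in log2(intensity + 16) of each cytokine gene with its 95% interval from limma, in 3 panels for the 3 comparisons, with filled points for an adjusted p under 0.05. The filled points are Il4 and Il6 in BCR/ABL against vector, at 5.17 and 5.38, and no point is filled in the other panels.

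Il4, Il13 and Csf2 belong with Il5 and Il3 to 1 cytokine cluster on mouse chromosome 11, known for its shared regulation in T cells. Along a stretch of 20 protein-coding genes in RefSeq order (GRCm38.p6, used for gene order only), the cytokine genes follow as Il4, Il13, Il5, Csf2 and Il3. Rad50, a DNA repair gene whose body holds the cluster's known locus control region, lies between Il13 and Il5. Its difference in BCR/ABL against vector was -0.22 (limma adjusted p = 0.644), and that of Kif3a, the kinesin gene next to Il4, was 0.18 (adjusted p = 0.885). The interferon regulatory factor gene Irf1, next to Il5, differed by -0.68 (adjusted p = 0.293). The gene beside Csf2 on its other side, P4ha2, differed by -0.93 (adjusted p = 0.387), and Acsl6, beyond Il3, by -1.17 (adjusted p = 0.568). Both P4ha2 and Acsl6 were below 16 on the 2 untreated BCR/ABL arrays, and Acsl6 had 149 on vector replicate 1 and 18.9 on vector replicate 2. A separate list of 14 neighbours leaves out some genes of this stretch and includes others that lie outside it. All 14 were measured, 0 were called by limma in either direction, 2 had an unadjusted p under 0.05, and the median difference was 0.10.

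**Figure D3:**
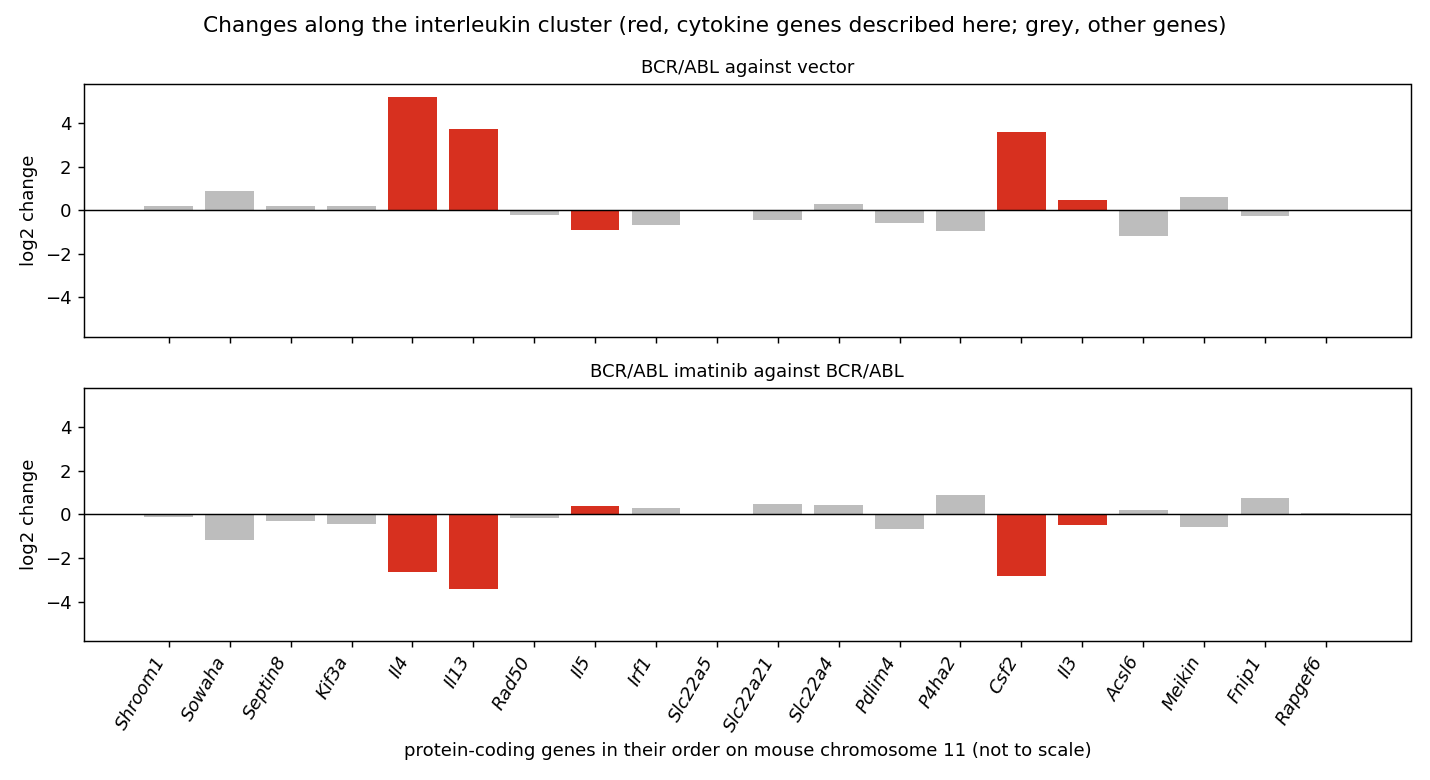
Change in log2(intensity + 16) of 20 protein-coding genes in their order on mouse chromosome 11, with cytokine genes in red and other genes in grey, for BCR/ABL against vector (top) and imatinib against untreated BCR/ABL (bottom). Il4, Il13 and Csf2 stand at 5.17, 3.70 and 3.57 in the top panel and at -2.63, -3.40 and -2.84 in the bottom panel.

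The promoters of Il4, Il13 and Csf2 and that of Il6, which lies on chromosome 5, are shown because these genes, beside Il1b with its unlike vector arrays, had the largest differences from vector among the 10. Each runs 5′ to 3′ on the gene's strand from 250 bases before to 50 bases after the RefSeq start, in build GRCm38.p6. Capitals mark 4 motifs, searched on both strands: the core bound by NFAT factors (GGAAA), an AP-1 site (TGANTCA), a STAT site (TTCNNNGAA) and a GATA core (GATAA). No motif match overlapped another in the 4 windows shown. Il4 had a pair of starts in the RefSeq table, and the upstream one was used. The Il4 window is chr11:53618616-53618915 on the minus strand, the Il13 window chr11:53634653-53634952 on the minus strand, the Csf2 window chr11:54249850-54250149 on the minus strand and the Il6 window chr5:30012864-30013163 on the plus strand.
Il4: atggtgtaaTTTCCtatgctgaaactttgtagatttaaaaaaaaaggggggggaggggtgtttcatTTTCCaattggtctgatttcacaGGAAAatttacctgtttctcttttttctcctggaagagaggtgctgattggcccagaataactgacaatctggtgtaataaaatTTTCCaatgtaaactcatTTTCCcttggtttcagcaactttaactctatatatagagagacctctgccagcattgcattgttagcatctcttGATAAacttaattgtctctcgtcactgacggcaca
Il13: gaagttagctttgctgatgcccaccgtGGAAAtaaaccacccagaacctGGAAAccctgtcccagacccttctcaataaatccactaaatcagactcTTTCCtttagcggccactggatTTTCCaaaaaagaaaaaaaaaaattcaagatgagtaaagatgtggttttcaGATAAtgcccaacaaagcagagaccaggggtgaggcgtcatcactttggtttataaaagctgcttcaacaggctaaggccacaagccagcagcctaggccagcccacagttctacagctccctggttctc
Csf2: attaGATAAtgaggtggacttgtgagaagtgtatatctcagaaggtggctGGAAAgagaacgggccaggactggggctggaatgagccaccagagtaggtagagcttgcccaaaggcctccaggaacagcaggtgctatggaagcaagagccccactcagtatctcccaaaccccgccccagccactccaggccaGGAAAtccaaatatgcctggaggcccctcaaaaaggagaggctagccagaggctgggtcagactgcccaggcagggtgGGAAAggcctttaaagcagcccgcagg
Il6: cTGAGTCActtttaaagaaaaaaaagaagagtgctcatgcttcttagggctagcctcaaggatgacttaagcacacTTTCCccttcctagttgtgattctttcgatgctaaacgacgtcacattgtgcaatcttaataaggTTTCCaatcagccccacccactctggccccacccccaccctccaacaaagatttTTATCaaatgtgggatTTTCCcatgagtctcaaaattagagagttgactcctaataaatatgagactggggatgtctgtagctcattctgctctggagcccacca

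The NFAT core was found 5 times in the Il4 window, 4 times in that of Il13 and 3 times each in those of Csf2 and Il6. It was present in all 10 cytokine promoters and in 61.3% of 32851 RefSeq promoter windows of the same length. The GATA core was present in 5 of 10, those of Il3, Il4, Il6, Il13 and Csf2, and in 25.4% of all windows. The AP-1 motif was present in 2 of 10, those of Il1a and Il6, and in 7.81% of all windows. The STAT motif was present in 0 of 10 and in 8.30% of all windows. A match describes only the letters in these windows.

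In imatinib-treated against untreated BCR/ABL cells, Il4, Il6, Il13, Csf2 and Il1b had between -3.40 and -2.63 on the log2 scale, and none passed the test. Limma called 0 of 10 genes and 0 of 18193, 0% in either direction. At an unadjusted p under 0.05 there were 6 of the 10 and 17.0% of all genes. Il4 had intensities of 351 and 227 with imatinib, against 1756 and 1721 without, a difference of -2.63 (SE 0.34, limma adjusted p = 0.108). Il6 had intensities of 548 and 241 with imatinib, against 2743 and 1898 without, a difference of -2.66 (SE 0.46, adjusted p = 0.120). The imatinib arrays of both genes lay well below the untreated ones.

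Il13 had intensities of 19.7 and 6.89 with imatinib, against 268 and 244 without. Its difference was -3.40 (SE 0.40, limma adjusted p = 0.108). The imatinib values lie near or below 16, and the difference was -4.62 with a constant of 1 and -2.15 with 64. Csf2 had intensities of 39.9 and 25.9 with imatinib, against 424 and 193 without, a difference of -2.84 (SE 0.48, adjusted p = 0.120). Il1b had intensities of 265 and 144 with imatinib, against 1924 and 1941 without, a difference of -3.29 (SE 1.07, adjusted p = 0.247).

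Csf1 was the exception among the brighter genes. It had intensities of 897 and 381 with imatinib, against 324 and 267 without, a difference of 0.83 (SE 0.45, limma adjusted p = 0.477). Its other 3 probe sets had differences of 0.49 to 0.56, with overlapping groups. The value rests mainly on imatinib replicate 1: the difference was 0.18 without it and 1.48 without imatinib replicate 2.

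The dim genes gave little to compare with imatinib. Il1a had intensities of 12.6 and 9.03 with imatinib, against 30.2 and 14.99 without, a difference of -0.75 (limma adjusted p = 0.325). Il3 had intensities of 0.321 and 0.663 with imatinib, against 0.971 and 14.1 without, and Il5 had 8.54 and 6.95, against 1.00 and 1.22. Tnf had intensities of 71.6 and 46.0 with imatinib, against 86.1 and 84.5 without, a difference of -0.76 with a 95% interval from -1.87 to 0.34. On the normalized scale the groups did not overlap for any of the 10 genes, 8 lower and 2 higher with imatinib, where 26.8% and 24.7% of all genes were lower and higher without overlap. The 10 include Il3 and Il5, whose values in this comparison all lay below 16.

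In imatinib-treated BCR/ABL against vector cells, Il4 and Il6 had higher intensity on both arrays without passing the test, while Il13 and Il1b overlapped with vector. Limma called 0 of 10 genes, against 15 of 18193 in either direction (0.0824%), 14 higher (0.077%) and 1 lower (0.0055%). At an unadjusted p under 0.05 there were 3 of the 10, Il4, Il6 and Csf1, and 16.6% of all genes. Il4 differed by 2.55 (SE 0.34, limma adjusted p = 0.116), Il6 by 2.71 (SE 0.46, adjusted p = 0.140) and Csf1 by 1.98 (SE 0.45, adjusted p = 0.191). All 4 probe sets of Csf1 were higher than in vector without overlap, at 1.04 to 1.98.

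Csf2 with imatinib lay just above its vector values, 39.9 and 25.9 against 8.31 and 12.2, a difference of 0.73 with a 95% interval from -0.45 to 1.91. Il13, at 19.7 and 6.89 against 2.03 and 10.7, differed by 0.29 with an interval from -0.68 to 1.27. Il1b, at 265 and 144 with imatinib, lay between its vector values of 513 and 30.1. On the normalized scale 5 of 10 genes were higher without overlap, against 21.8% of all genes, none was lower without overlap, against 22.3%, and 5 overlapped. These 3 comparisons share arrays, so their values are not independent of each other. The order of the groups, without overlap, was untreated BCR/ABL, then imatinib, then vector for Il4, Il6, Csf2 and the dim Il1a. For the probe set that represents Csf1 it was imatinib, then untreated BCR/ABL, then vector. Its other probe sets overlapped between imatinib and untreated cells.

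Receptors of the 10 cytokines were represented by 16 of 18 listed genes. Beside the counts for this and the other lists, 12.7%, 17.0% and 16.6% of all genes had an unadjusted p under 0.05. These shares are for BCR/ABL against vector, imatinib against untreated and imatinib against vector. In BCR/ABL against vector limma called 0 of 16 in either direction, 6 had an unadjusted p under 0.05, and the median change was -0.03. Il1r2, a decoy receptor that binds interleukin 1 without signalling, had intensities of 535 and 494 in BCR/ABL cells, against 74.6 and 33.3 in vector cells, a difference of 3.07 (adjusted p = 0.165). Il6st, the signalling chain for Il6, had 427 and 444 in BCR/ABL cells, against 1262 and 1325 in vector cells, a difference of -1.51 (adjusted p = 0.219). Csf2rb2, a beta chain for Il3, and Il4ra differed by 1.40 (adjusted p = 0.312) and 0.75 (adjusted p = 0.388).

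With imatinib against untreated BCR/ABL limma again called 0 of 16 receptor genes, with 2 at an unadjusted p under 0.05 and a median of 0.18. The 4 largest differences were positive: 0.91 for Il1r2, 0.87 for Il6ra, 0.71 for Il5ra and 0.59 for Il3ra, with limma adjusted p from 0.168 to 0.528. Against vector, imatinib-treated cells had 0 of 16 called, 8 at an unadjusted p under 0.05 and a median of 0.45. Il1r2 reached intensities of 1672 and 620 with imatinib, a difference from vector of 3.98 (adjusted p = 0.116), beside 1.53 for Csf2rb2, -1.10 for Il6st and 1.03 for Il1r1.

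Inhibitors and processing enzymes of these cytokines were represented by 14 of 15 genes, and limma called 0 in each comparison. At an unadjusted p under 0.05 there were 1 gene in BCR/ABL against vector, 4 with imatinib against untreated and 2 with imatinib against vector. Il1rn, the natural antagonist of interleukin 1, had intensities of 302 and 205 with imatinib, 825 and 1129 in untreated BCR/ABL cells, and 542 and 53.1 in vector cells. Its spread in vector resembled that of Il1b, with vector replicate 1 the higher array for both. Its differences were 2.29 in BCR/ABL against vector (adjusted p = 0.427) and -1.97 with imatinib against untreated (adjusted p = 0.398). Tnfaip3, an inhibitor of NF-kappaB signalling, had intensities of 1049 and 673 with imatinib, against 297 and 262 without, a difference of 1.44 (adjusted p = 0.136). Zfp36, whose protein destabilises Tnf and other cytokine mRNAs, differed by 0.74 with imatinib (adjusted p = 0.198). The list medians were -0.11, 0.14 and 0.18 in BCR/ABL against vector, imatinib against untreated and imatinib against vector.

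Transcription factors and signal proteins that act on these genes were represented by 34 of 35 genes, and limma called 0 in each comparison. At an unadjusted p under 0.05 there were 9 in BCR/ABL against vector, with a median of 0.10, and 7 with imatinib against untreated, with a median of 0.08. Egr1, an immediate early factor, had intensities of 1320 and 931 with imatinib, 3946 and 3104 in untreated BCR/ABL cells, and 1513 and 1202 in vector cells, and differed by 1.33 in BCR/ABL against vector (adjusted p = 0.165). Fosl1, a subunit of AP-1, differed by 2.42 in BCR/ABL against vector (adjusted p = 0.295) and by -1.90 with imatinib against untreated (adjusted p = 0.246), with 42.5 and 0.869 on the imatinib arrays. Irf4, which acts on Il4 in T cells, had intensities of 24.5 and 54.1 with imatinib, 125 and 252 in untreated BCR/ABL cells, and 1692 and 114 in vector cells, so its vector level rests on replicate 1. Egr2 and Egr3 differed by 1.20 and 1.21 in BCR/ABL against vector and by -2.58 and -2.13 with imatinib against untreated, and their vector arrays were also far apart, at 1105 and 25.9 for Egr2 and 469 and 17.1 for Egr3. With imatinib against vector there were 6 of 34 at an unadjusted p under 0.05, and Irf4, Egr2, Fosl2 and Mitf differed by -3.33, -1.38, 1.25 and 1.20.

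Other secreted cytokines were represented by 33 of 40 genes, with 0 called by limma in each comparison. In BCR/ABL against vector 8 had an unadjusted p under 0.05, the median was -0.01, and 15 were higher and 18 lower. Lif and Osm, relatives of Il6 that use the same signalling chain, were among the higher. Lif had intensities of 199 and 59.1 with imatinib, 1048 and 499 in untreated BCR/ABL cells, and 65.6 and 20.4 in vector cells. Its differences were 3.84 in BCR/ABL against vector (adjusted p = 0.194) and -2.68 with imatinib against untreated (adjusted p = 0.185). Osm had 597 and 397 with imatinib, 2516 and 1615 in untreated BCR/ABL cells, and 235 and 187 in vector cells, and differed by 3.16 in BCR/ABL against vector (adjusted p = 0.0705) and by -2.04 with imatinib against untreated (adjusted p = 0.108).

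Tnfsf13b, a B cell survival factor, differed by 2.30 in BCR/ABL against vector (adjusted p = 0.281). Il12a, a subunit of interleukin 12, had intensities of 302 and 232 in BCR/ABL cells, against 1278 and 1430 in vector cells, a difference of -2.23 (adjusted p = 0.155). With imatinib against untreated there were 7 of 33 at an unadjusted p under 0.05, with a median of -0.003, and Tnfsf11 and Lta differed by -2.63 and -1.25. With imatinib against vector there were 4 of 33, with a median of -0.01, and Lta, Il12a, Il12b and Ifng differed by -1.71, -1.57, -1.56 and -1.32. Those of Lta, Il12b and Ifng rest on vector replicate 1, the array with the high B and T cell marker sums. Replicates 1 and 2 of vector had 200.2 and 14.2 for Lta, 112 and 5.81 for Il12b, and 70.0 and 5.44 for Ifng, and all imatinib values of these 3 genes lay below 16.

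**Figure D4:**
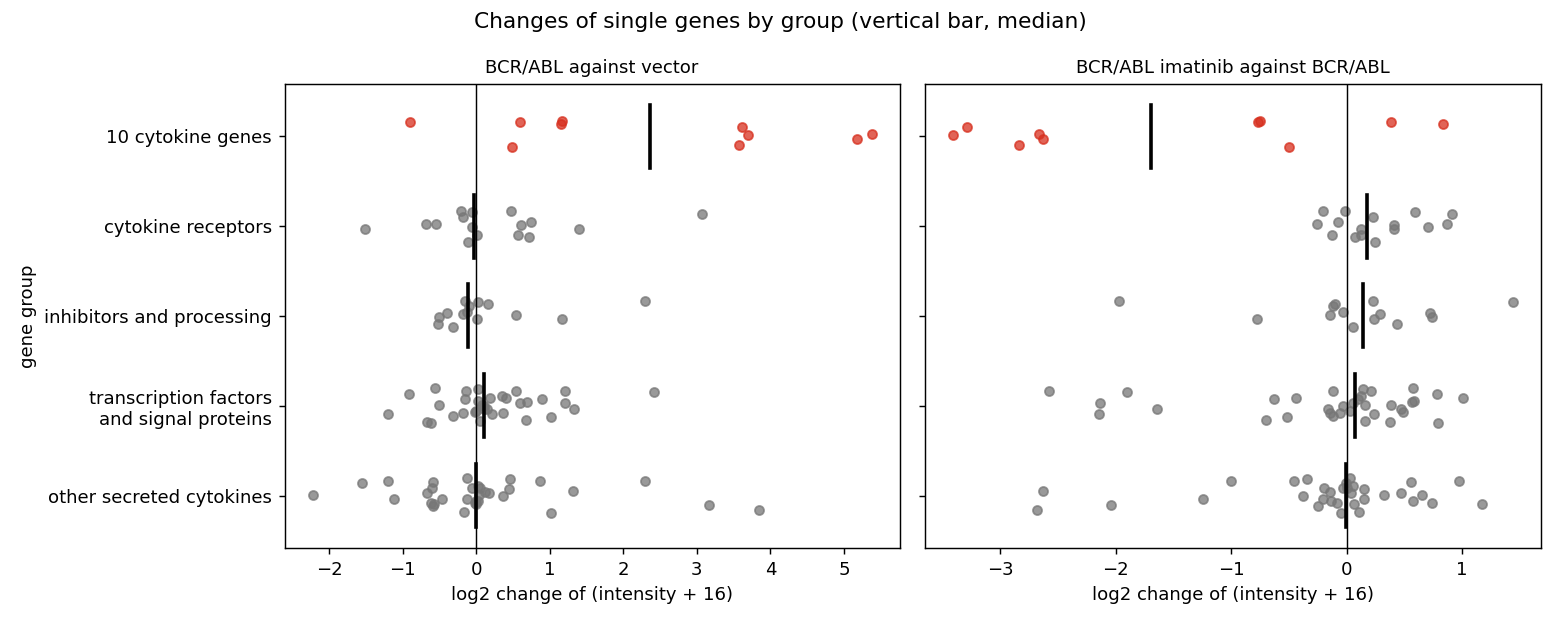
Change in log2(intensity + 16) of single genes (points) in the 10 cytokine genes and 4 related groups, with the group median as a vertical bar, for BCR/ABL against vector (left) and imatinib against untreated BCR/ABL (right). The median of the 10 cytokine genes is 2.36 on the left and -1.70 on the right, and those of the 4 other groups lie between -0.11 and 0.18.

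Cell type markers were measured because mast cells, basophils, T cells and macrophages are known sources of these cytokines. In bulk samples, fewer cells of a type and less RNA per cell cannot be told apart. The summed intensity of 9 mast cell markers was 53224 and 44361 with imatinib, 28362 and 27715 in untreated BCR/ABL cells, and 9669 and 6117 in vector cells. For 4 of 5 basophil markers measured it was 22016 and 17616 with imatinib, 17278 and 17185 untreated, and 5603 and 3879 in vector. All 4 BCR/ABL arrays thus exceeded both vector arrays in both sums. Both imatinib arrays also exceeded both untreated arrays in both sums, though not for each basophil marker. The 2 lists share Fcer1a and Ms4a2. Of the 4 basophil markers, 3 had a positive difference with imatinib against untreated and 1, Mcpt8, a negative one. Mcpt8 had 8141 and 7236 with imatinib against 8516 and 9192 untreated, and Cd200r3 overlapped. The part of mast cells and basophils in the cytokine values was not tested.

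In BCR/ABL against vector, limma called 1 of 9 mast cell markers, Hdc, the enzyme that makes histamine, which rose by 2.35 (adjusted p = 0.0236). It called 1 of 4 basophil markers, the receptor gene Cd200r3, which rose by 3.48 (adjusted p = 0.0217). The proteases Tpsb2, Cma1, Tpsab1 and Mcpt4 had differences of 3.61, 3.23, 2.99 and 2.67 without passing. For 3 of these the vector arrays disagreed, with replicates 1 and 2 at 878 and 34.0 for Tpsb2, 1395 and 159 for Cma1, and 518 and 2.40 for Mcpt4. Mcpt4 had 572 and 645 in BCR/ABL cells, close to vector replicate 1. With imatinib against untreated, 0 of 9 and 0 of 4 were called, with medians of 1.08 and 0.30 and with 3 of 9 and 0 of 4 at an unadjusted p under 0.05, and Tpsab1 differed by 2.82 (limma adjusted p = 0.120) and Kit by 1.13 (adjusted p = 0.108). With imatinib against vector Tpsab1, Hdc and Cd200r3 rose, by 5.81 (adjusted p = 0.0484), 2.44 (adjusted p = 0.0363) and 3.77 (adjusted p = 0.0347). Tpsab1 had intensities of 1393 and 627 with imatinib, against 0.684 and 0.462 in vector cells, far below 16, so the size of its rise is set by the added constant.

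Of 8 T cell markers 6 were measured. On replicates 1 and 2, 5 and 1 of them lay below 16 with imatinib, 5 and 4 in untreated BCR/ABL cells, and 0 and 5 in vector cells. Cd3e, a subunit of the T cell receptor complex, had intensities of 9.22 and 31.1 with imatinib, 4.41 and 10.9 in untreated BCR/ABL cells, and 198 and 2.01 in vector cells. Cd8a, a T cell co-receptor, had 15.04 and 27.2 with imatinib, 27.8 and 26.6 in untreated BCR/ABL cells, and 389 and 58.8 in vector cells. The part of T cells in the cytokine values was not tested. The summed intensity of 7 macrophage and monocyte markers was 12866 and 11686 with imatinib, 10157 and 12500 untreated, and 14653 and 8369 in vector, so the vector arrays enclosed the others. Stromal and endothelial markers, of which 7 were measured, summed to 1018 and 952 with imatinib, 895 and 767 untreated, and 906 and 703 in vector. None of the T cell, B cell, macrophage, granulocyte or stromal markers was called by limma in any of the 3 comparisons, with between 0 and 5 of a list at an unadjusted p under 0.05.

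**Figure D5:**
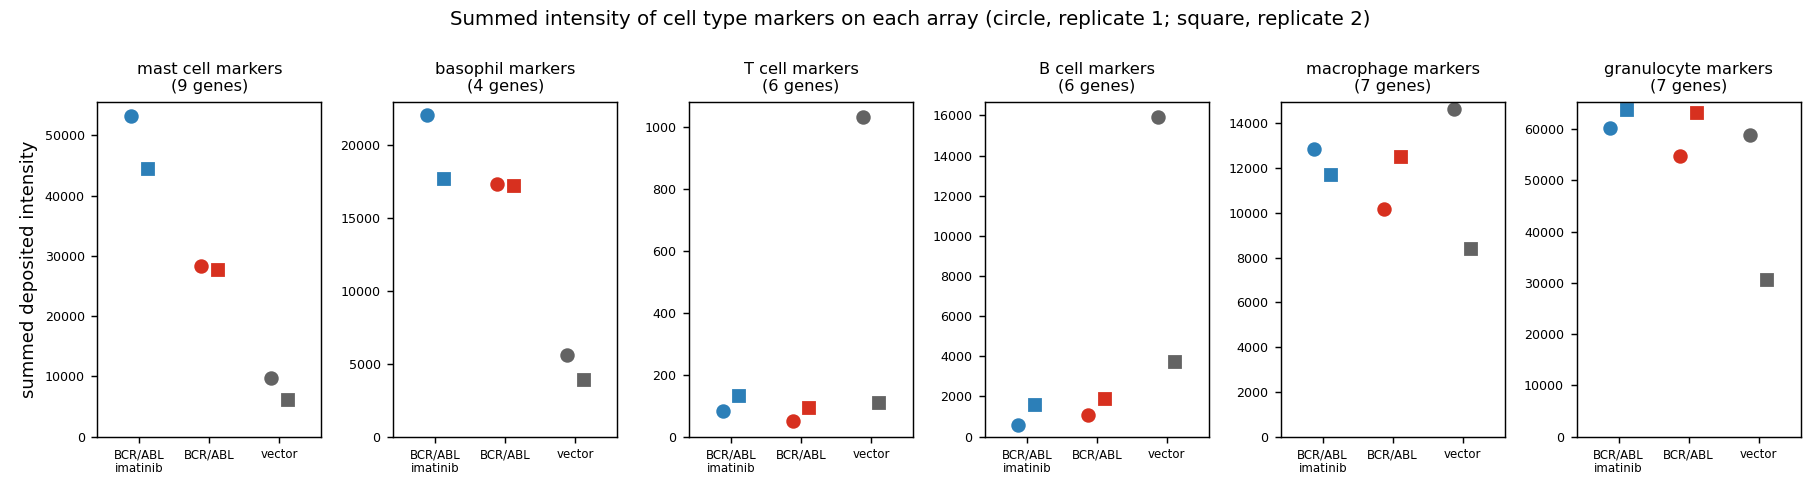
Summed deposited intensity (linear axis from 0) of 6 lists of cell type markers on each array, with circles for replicate 1 and squares for replicate 2. Mast cell markers sum to 53224 and 44361 with imatinib, 28362 and 27715 in untreated BCR/ABL cells, and 9669 and 6117 in vector cells.

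The genes whose pattern over the 6 arrays was most like that of Il4 and Il6 were sought by Pearson correlation of log2 values among 10051 genes with a mean above the median of all probe sets. The 6 arrays form 3 groups, so a high value mostly reflects the order of the group means, and 51 genes exceeded 0.95 for Il4 and 64 for Il6. For Il4 the 5 highest were Muc20, Il6, Dok2, Nfil3 and Podxl, with correlations of 0.989 to 0.993. Nfil3, a transcription factor regulated by interleukin 3, had intensities of 778 and 563 with imatinib, 1080 and 1141 in untreated BCR/ABL cells, and 356 and 306 in vector cells. For Il6 the 5 highest were Ccn3, Dok2, Glipr2, Morrbid and Actg1, with correlations of 0.993 to 0.997. Dok2, an adaptor protein that BCR/ABL phosphorylates, had intensities of 503 and 479 with imatinib, 689 and 643 untreated, and 357 and 349 in vector.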

How the data were processed

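The deposited table holds MAS5 intensity values, 1 per probe set and linear, made by the authors with Affymetrix Expression Console and MAS5, per the submitters' processing notes. The sources used here give no program versions or genome build. The probe sets belong to a 3-prime mouse array, while the labels' protocols name a whole-transcript array and kit, and this was not settled. Of 45101 probe sets, 64 controls were left out and 35877 with at least 1 annotated symbol were tested, without a filter on low values. Genes were named only from probe sets with 1 symbol. All 10 cytokine genes matched a RefSeq gene table (GRCm38.p6) by Entrez identifier.

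Values were taken as log2(intensity + 16) and quantile normalized over all non-control probe sets. They were fitted with limma 3.58.1 in R 4.3.3 (lmFit, eBayes with trend=TRUE, 3 residual degrees of freedom, prior degrees of freedom 2.97). Tests are two-sided. The same fit was tested on simulated data. The number of arrays limits the precision. Sample titles gave group and replicate.

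The genes and lists were chosen with earlier results of these data known. All 10 cytokine genes are named in each comparison. From each other list, genes among the 4 with the largest differences in a comparison and those called are named, and also Rad50 and Kif3a for their position and Cd3e, Cd8a and Kit as defining markers (Cd8a after its values were seen). The 5 genes most like each called cytokine gene are named too. Promoter sequences are from RefSeq, and all 10 genes matched. Other added constants, scalings, a filter, variance priors, averaged probe sets, 2-group fits, a replicate block and leaving out each array were tried.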

Additional observations from a re-analysis of the deposited data

How the results depend on the processing

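Of 462 alternative fits of a cytokine gene in a comparison, 426 kept the direction and the side of the threshold, 17 brought a call, 11 ended one and 8 turned the sign. All 8 turns came from leaving out 1 array, in 6 results. Without vector replicate 1, Il5 in BCR/ABL against vector was 0.027 (leave-one-out range -1.82 to 0.027). In imatinib against vector, Il5 was 0.41 (range -1.44 to 0.41), Il3 0.018 (range -0.051 to 0.018) and Tnf 0.19 without that array. Tnf was 0.18 without imatinib replicate 2 (range -0.52 to 0.19). Without imatinib replicate 1, Il1b was -0.16 and Il13 -0.044 (range -0.044 to 0.63), and Il1b was -1.42 without vector replicate 2 (range -1.42 to 2.08). The cause of these turns was not tested.

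The 2 genes called in BCR/ABL against vector became 1 (Il4) with 64 as the added constant, 0 with a prior not tied to signal (Il4 adjusted p = 0.0568, Il6 0.104) and 5 (Il1b, Il4, Il6, Il13 and Csf2) with array medians, and ranged from 0 to 2 when 1 array was left out. Il13 was also called with a robust prior (adjusted p = 0.0466) or averaged probe sets (adjusted p = 0.0407). In imatinib against untreated, the count of 0 became 5 (the same genes) with array medians and 2 (Il4 and Il6) with a filter at the 50th percentile, and was 0 without any 1 array. In imatinib against vector, the count of 0 became 1 (Il4) with a constant of 1, 2 (Il4 and Il6) with array medians and 2 (Il4 and Il6) with the filter, and was 0 without any 1 array. The filter left out 6 of the 10 genes, all but Il1b, Il4, Il6 and Csf1, and tested 10052 genes. Array medians moved the median of all genes by 0.20, -0.27 and -0.09 in the 3 comparisons, against 0.01, -0.01 and -0.001 with quantile normalization. With array medians 231, 733 and 207 genes were called in all, against 19, 0 and 15. In BCR/ABL against vector that total was 65 with a constant of 1, 106 with the filter, 38 with a robust prior, 38 with averaged probe sets and 0 with a prior not tied to signal. Leaving out 1 array gave totals from 0 to 32 there, 0 in imatinib against untreated and from 0 to 39 in imatinib against vector. In imatinib against untreated the total was 145 with the filter and 3 with a constant of 1. In imatinib against vector it was 66 and 3 with constants of 1 and 64, 146 with the filter, 25 with a robust prior, 0 with a prior not tied to signal or with 2 groups alone, and 9 with the replicate block.

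The replicate numbers are not said to mark shared mice or days. Deviations of same-numbered arrays from their group means correlated at 0.15 (imatinib and BCR/ABL), 0.16 (imatinib and vector) and -0.08 (BCR/ABL and vector), so the numbers were not taken to pair the arrays. With the replicate block 1 gene was called in BCR/ABL against vector, Il4, while Il6 had adjusted p = 0.0584, and 0 were called in the other comparisons. Il1a, Il3 and Il5 lie at or near background, as do Il13 and Csf2 in vector cells and Il13 with imatinib, and their log2 changes depend on the added constant.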
